A study of Mus musculus with 3 samples.

Results

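The expression of 9 genes, 3 that encode pacemaker channel subunits (Hcn2, Hcn3 and Hcn4) and 6 that encode connexins (Gja1, Gja3, Gja4, Gja5, Gjc1 and Gjd3), was followed through ventricle development in the mouse. They were found by gene name in the deposited transcript annotation, and their 9 loci are among 48626 loci in the expression table, of which 20117 hold a known mRNA. Total RNA came from the heart ventricles of C57BL/6 mice at 2 embryonic stages, E10.5 and E13.5, where the number counts days of gestation, and at 8 weeks of age (Adult), with no genetic change or treatment in any of them. Each stage is represented by 1 RNA-seq library. The number of hearts pooled for a library was not given in the sources used here. No spread between animals could therefore be measured, no statistical test was made, and every difference compares 3 libraries and has no replicate check. The comparison asked how the levels of these genes differ between the early embryonic, the later embryonic and the mature ventricle.

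HCN channels open when the membrane hyperpolarizes, are bound by cyclic AMP, and carry the inward current that helps pacemaker cells of the sinoatrial node to fire spontaneously. Hcn4 is the main subunit in the sinoatrial node and is broadly present in the early heart tube, Hcn2 is the subunit best known from working cardiomyocytes, and Hcn3 is known mainly from neurons. Connexins assemble into gap junctions, which pass current and small molecules from cell to cell. In the heart, connexin Cx43 (Gja1) joins working ventricular cardiomyocytes, Cx40 (Gja5) is found in atria, in embryonic trabeculae, in the His-Purkinje system and in arterial endothelium, Cx45 (Gjc1) is found in the early heart and the nodes, Cx37 (Gja4) in arterial endothelium, and Cx30.2 (Gjd3) in the nodes of the mouse. Cx46 (Gja3) is best known from the eye lens.

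Levels are given in fpkm, the number of sequenced fragments per kilobase of exon, scaled to the number of fragments mapped in the library. This unit corrects for transcript length, so that levels of different genes can be set side by side. A change is a difference of log2(fpkm + 1) between 2 libraries, and a gene was counted as higher or lower when that difference was past 1 in either direction. This scale understates the change of genes near or below 1 fpkm. A locus was called expressed when it reached 1 fpkm in at least 1 library, which 12569 mRNA loci did. The smallest steps between values gave about 14.3 sequenced fragments per fpkm and kilobase in the E10.5 library, 25 in that of E13.5 and 13.9 in that of Adult, and these set the approximate fragment numbers given below. The scale was not the same in the 3 libraries: the median change of all expressed mRNA loci was 0.17 from E10.5 to E13.5, -0.50 from E13.5 to Adult and -0.40 from E10.5 to Adult. The sums of 8 ventricular marker genes went from 10633 at E10.5 through 17790 to 22018 fpkm in Adult, whereas 5 atrial marker genes summed to 6393, 6780 and 48.3 fpkm. Of these, Myl7 and Myl4, atrial myosin light chains, stood at 2453 and 2164 fpkm in the E10.5 ventricle and at 0.719 and 1.42 fpkm in Adult.

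Of the 9 genes, 7 were expressed. From E10.5 to Adult, Hcn2, Gja1 and Gja3 were higher and Hcn4, Gja4, Gja5 and Gjc1 were lower, so that none of the 7 stayed within the threshold. Over all expressed mRNA loci, 14.8% were higher and 27.3% were lower in this comparison. From E13.5 to Adult, Hcn2 and Gja1 were higher and Hcn4, Gja4, Gja5 and Gjc1 were lower, beside 13.0% higher and 32.1% lower of all expressed mRNA loci. Between E10.5 and E13.5, 0 of the 7 genes were higher and 0 were lower, beside 5.89% and 4.85% of all. Hcn2 passed the limit of 1 fpkm only through its Adult value, Hcn4 only through its embryonic values, and Gja3 only through E13.5 and Adult, so a difference between stages was to that extent built into these counts. Hcn3 and Gjd3 were below 1 fpkm in each library. When the libraries were scaled so that the median ratio between them was level, the whole background from E10.5 to Adult turned to 20.9% higher and 17.6% lower, and that from E13.5 to Adult to 21.9% and 18.1%, and the number of these genes lower in Adult than in E13.5 went from 4 to 2, without Hcn4 and Gjc1. The number higher in that comparison went from 2 to 3, with Gja3 added, so that the balance turned, and the number lower in Adult than in E10.5 went from 4 to 3, without Gjc1.

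**Figure D1:**
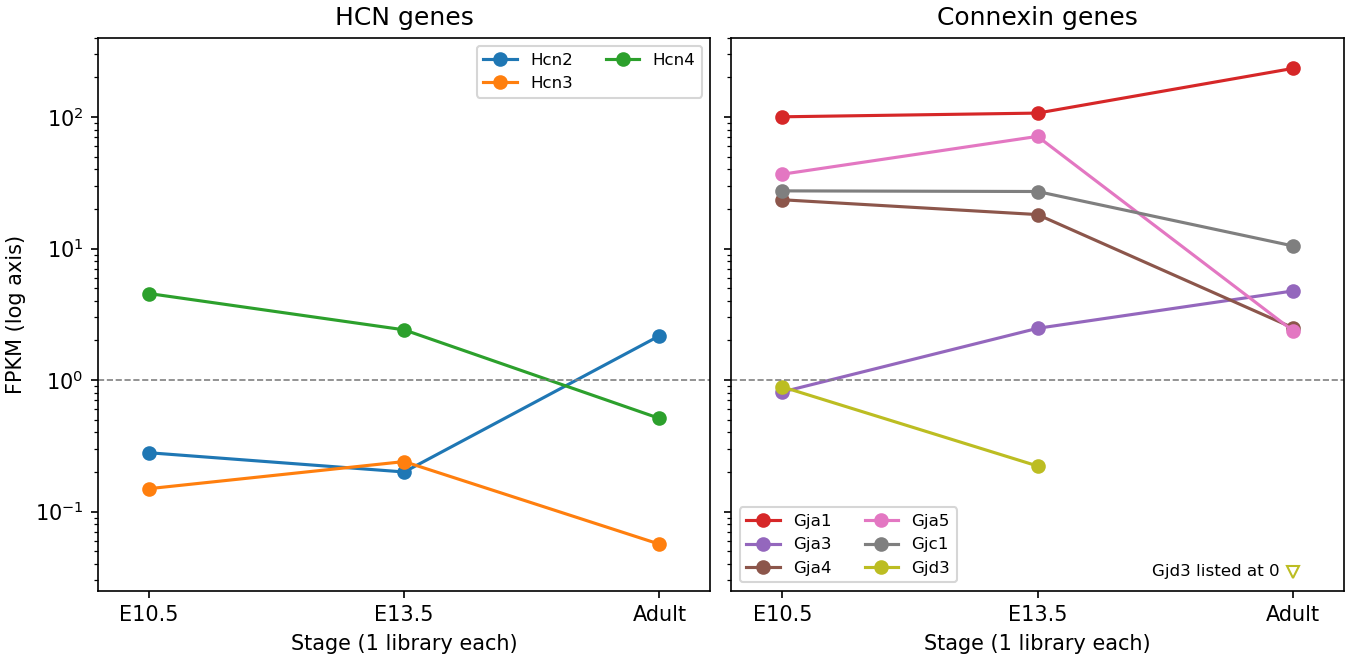
Levels in fpkm (log axis) of the 3 HCN genes (left) and the 6 connexin genes (right) at E10.5, E13.5 and Adult, with 1 library per stage, so that no error bar can be drawn. The dashed line marks 1 fpkm, and the open triangle marks Gjd3, listed at 0 in Adult; the lines of Hcn4 and Hcn2 cross between E13.5 and Adult, and Gja1 lies above all others at each stage.

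**Figure D2:**
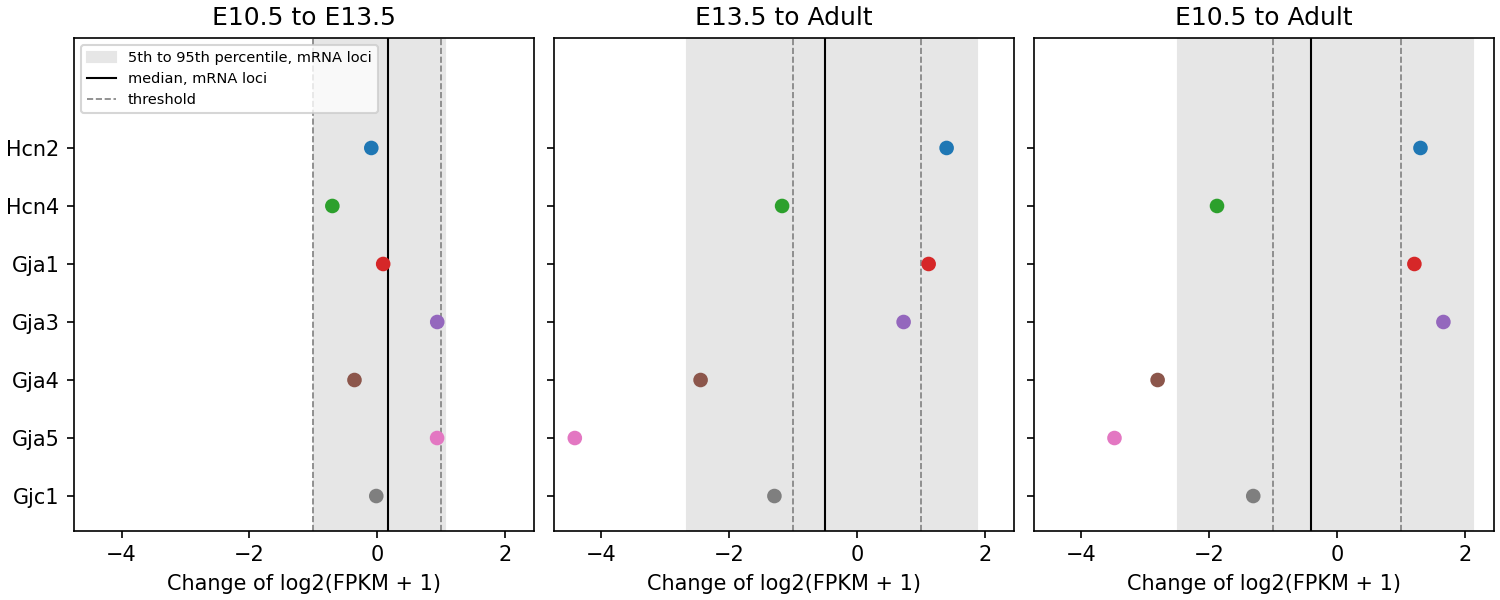
Change of log2(fpkm + 1) of the 7 expressed genes in the 3 comparisons of stages. Grey bands span the 5th to the 95th percentile of 12569 expressed mRNA loci, black lines their medians and dashed lines the threshold of 1; Gja5 and Gja4 fall left of the band from E10.5 to Adult, at -3.48 and -2.81.

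Hcn4 was the leading HCN gene of the embryonic ventricle and was lower in Adult. It had 4.55 fpkm at E10.5, against 2.41 fpkm at E13.5 and 0.511 fpkm in Adult, from about 247, 229 and 27 fragments. The E10.5 level was 8.90 times that of Adult, and the change was -1.88 from E10.5 to Adult, -0.70 from E10.5 to E13.5 and -1.17 from E13.5 to Adult. Even at E10.5 this was a low level, above 29.7% of the expressed mRNA loci of that library, and in Adult it stood above 7.42% of them. The step from E13.5 to Adult depended on the scale. It was inside the threshold under 3 of 5 alternatives. These gave -0.86 and -0.98 under the other scalings of the libraries and -0.51 relative to loci of like transcript length. The step from E10.5 to Adult was past the threshold in all 5. Those of the 5 that added a smaller constant to fpkm could only enlarge a change, so they could not test either step.

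Hcn2 went the other way. It stood at 0.280 fpkm in the E10.5 library, 0.200 fpkm in that of E13.5 and 2.17 fpkm in that of Adult, so both embryonic libraries were low and only Adult was above 1 fpkm. The Adult level was 7.74 times that of E10.5, a ratio that rests on about 11 to 13 fragments at E10.5 and 80 to 96 in Adult, and the change was 1.31. An unspliced locus without a gene name, inside the span of Hcn2 on the same strand, had 0.125 fpkm at E10.5, was listed at 0 at E13.5 and had 0.636 fpkm in Adult. Its part in the Hcn2 value was not tested.

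Hcn3 had 0.149, 0.240 and 0.0566 fpkm, from about 7, 20 and 3 fragments, which is too few to order the stages. As a guide to such low values, 1084 loci of olfactory receptors, odorant sensors of the nose, had 95th percentiles of 0.104, 0.0642 and 0.221 fpkm in the same order of libraries. Hcn3 was above that level in both embryonic libraries and below it in Adult.

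The make-up of the HCN transcripts therefore differed between stages more than their sum did. Hcn2, Hcn3 and Hcn4 together came to 4.98 fpkm in the E10.5 library, 2.85 fpkm in that of E13.5 and 2.74 fpkm in Adult. Hcn4 made up 91.4%, 84.5% and 18.7% of these sums. Hcn2 made up 5.63%, 7.03% and 79.3%. The level of Hcn2 divided by that of Hcn4, a ratio taken within a library and so free of its scaling, went from 0.062 at E10.5 through 0.083 to 4.24 in Adult.

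**Figure D3:**
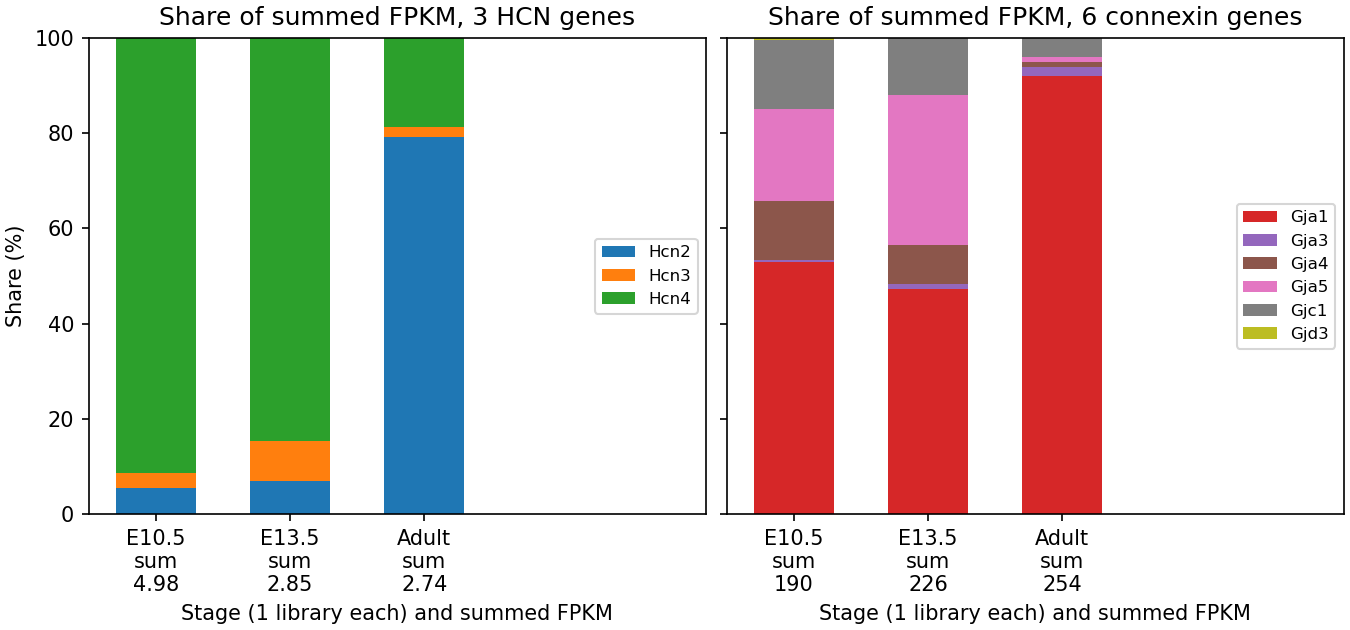
Share (%) of each gene in the summed fpkm of the 3 HCN genes (left) and of the 6 connexin genes (right) at each stage, with the sums under the bars and 1 library per bar. Hcn4 fills most of the embryonic HCN bars and Hcn2 most of the Adult bar, while Gja1 goes from 52.9% at E10.5 to 92.1% of the connexin sum in Adult.

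The start of Hcn4 faces another gene. Hcn4 lies on chromosome 9, at chr9:58823512-58860955 on the plus strand in mm10, with 8 exons. On the minus strand, the locus named 2410076I21Rik in the annotation (chr9:58652856-58822591) was assembled with a first exon whose start is 921 bp from the assembled start of Hcn4. RefSeq names this gene Rec114, a protein-coding gene known from meiotic recombination, and places its outermost start at position 58822706. This neighbour went from 6.28 fpkm at E10.5 through 2.89 to 0.113 fpkm in Adult. Thus it was higher than Hcn4 in both embryonic libraries, at 1.38 and 1.20 times the Hcn4 level, and lower in Adult, at 0.221 times. Its change from E10.5 to Adult was -2.71. The RefSeq start of Hcn4 lies 563 bp upstream of the assembled one and 358 bp from the assembled start of the neighbour. The RefSeq promoter window of Hcn4, 300 bases around its RefSeq start, therefore lies between the 2 assembled starts and holds the outermost RefSeq start of Rec114, and it is shown for that reason. It has a GC content of 71.7%, against a median of 52.7% over 32851 such windows.
Hcn4 promoter, chr9:58822699-58822998 (+ strand, GRCm38.p6): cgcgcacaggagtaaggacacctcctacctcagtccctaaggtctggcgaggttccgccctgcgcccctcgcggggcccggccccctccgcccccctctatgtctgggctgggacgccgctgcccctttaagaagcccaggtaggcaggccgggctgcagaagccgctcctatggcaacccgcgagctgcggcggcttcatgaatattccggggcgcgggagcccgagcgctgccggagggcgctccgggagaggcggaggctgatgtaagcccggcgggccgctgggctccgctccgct
No match to any of the 4 motifs searched, which are spelled out with the connexin promoters, is in this window, and so it has no capitals.

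Hcn2 also has close neighbours with gene names. It lies at chr10:79716634-79736108 on the plus strand. The 3′ end of Polrmt, which encodes the mitochondrial RNA polymerase, is 17 bp away on the opposite strand and had 5.98, 6.67 and 3.79 fpkm at the successive stages. Bsg, which encodes basigin, a chaperone of lactate transporters, ends 4655 bp upstream and had 252, 324 and 460 fpkm, so that it was highest in Adult, like Hcn2, with a change of 0.87 from E10.5 that was inside the threshold. Hcn3, at chr3:89146775-89160157 on the minus strand, has Pklr, the pyruvate kinase gene of liver and red cells, 181 bp beyond its 3′ end on the opposite strand, with 2.97, 0.269 and 0.018 fpkm.

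Among the connexins, Gja1 had the highest level at each stage and was higher still in Adult. It had 100 and 107 fpkm in the E10.5 and E13.5 libraries and 234 fpkm in Adult. Both embryonic libraries were thus close, with a change of 0.09, and Adult was 2.33 times E10.5, with a change of 1.21. From E13.5 to Adult the change was 1.12. Gja1 stood above 95.9%, 94.9% and 98.6% of the expressed mRNA loci at the 3 stages, and its values rest on at least about 4447 fragments in each library. Per unit of Actn2, the Z-disc protein alpha-actinin of cardiomyocytes, Gja1 came to 0.392, 0.425 and 0.516. Per unit of Cdh2, the N-cadherin of the intercalated disc, it came to 1.43, 2.86 and 3.17, and per unit of Tnnt2, cardiac troponin T, to 0.160, 0.070 and 0.074. The direction from E10.5 to Adult therefore differed with the reference gene.

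Gja5 had the largest fall of the 7 expressed genes. It went from 36.7 fpkm at E10.5 up to 71.2 fpkm at E13.5 and down to 2.38 fpkm in Adult, from about 1630, 5532 and 103 fragments. E13.5 was thus the highest of the 3 libraries, by 1.94 times over E10.5, which is a change of 0.94 and just inside the threshold. The E13.5 level was 29.9 times and the E10.5 level 15.4 times that of Adult, with changes of -4.42 and -3.48. At E13.5 Gja5 stood above 92.1% of the expressed mRNA loci, and in Adult above 23.2%.

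Gja4 fell as well, without the peak at E13.5. The embryonic libraries had 23.5 and 18.1 fpkm and Adult had 2.50 fpkm, from about 545, 735 and 56 fragments. The E10.5 level was 9.39 times that of Adult, a change of -2.81. The change from E13.5 to Adult was -2.45 and that between the embryonic stages was -0.36. Per unit of Pecam1, an adhesion molecule of all endothelium, Gja4 came to 0.504, 0.381 and 0.034. Cdh5, Kdr and Flt1, other endothelial markers, fell more than Gja4 between the embryonic stages, with changes of -1.89, -1.21 and -1.03. The 5 others of that list, Pecam1 included, stayed within the threshold. The direction of Gja4 from E10.5 to E13.5 therefore differed with the reference gene. The ratio of Gja5 to Gja4 was 1.56, 3.93 and 0.951.

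Gjc1 was lower in Adult by a smaller step. It had 27.4 and 27.1 fpkm in the embryonic libraries and 10.47 fpkm in Adult. The embryonic libraries were nearly equal, with a change of -0.02, and the E10.5 level was 2.62 times that of Adult. The changes to Adult were -1.29 from E13.5 and -1.31 from E10.5. Each was inside the threshold under 2 of 5 alternatives. Both were so with median-of-ratios scaling, at -0.71 and -0.88. The first was also inside when globin and mitochondrial loci were left out of the scaling, at -0.98. The second was also inside relative to loci of like transcript length, at -0.88. Those of the 5 that added a smaller constant to fpkm could only enlarge these changes.

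Gja3 was low but was highest in Adult, like Hcn2. It went from 0.813 fpkm at E10.5 through 2.47 to 4.76 fpkm in Adult, from about 16 to 29, 87 to 156 and 93 to 167 fragments. Adult was 5.85 times E10.5, a change of 1.67, while the steps in between, 0.94 and 0.73, were each inside the threshold. The first of them was past it with a pseudocount of 0.1 or 0.5 in place of 1, at 1.496 and 1.18, and the second with median-of-ratios scaling, at 1.21, and relative to loci of like transcript length, at 1.40. Gjd3 had 0.888 fpkm at E10.5 and 0.222 fpkm at E13.5, from about 11 and 5 fragments, and was listed at 0 in Adult. Its assembled model is a single exon of 837 nt, so its levels rest on a short stretch.

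The order of the connexins by level changed between libraries. At E10.5 it was Gja1, Gja5, Gjc1, Gja4, Gjd3 and Gja3, and in Adult it was Gja1, Gjc1, Gja3, Gja4, Gja5 and Gjd3. In Adult, Gja4 and Gja5 differed by little, at 2.50 and 2.38 fpkm, and at E10.5 Gja3 and Gjd3 likewise, at 0.813 and 0.888 fpkm. The summed level of the 6 connexin genes was 190, 226 and 254 fpkm at the 3 stages. Gja1 made up 52.9%, 47.3% and 92.1% of it, and Gja5 19.4%, 31.5% and 0.937%. Gjc1 made up 14.5%, 12.0% and 4.13%, and Gja4 12.4%, 8.01% and 0.985%. In Adult the level of Gja1 was 98.3 times that of Gja5, 93.5 times that of Gja4 and 22.3 times that of Gjc1. At E10.5 these ratios were 2.73, 4.27 and 3.66.

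RefSeq promoter windows of 300 bases were found for 6 of the 9 genes, in 7 windows. Those of Gja1, Gja5 and Gja3 are shown, as the connexins with the highest level, the largest fall and the largest rise from E10.5 to Adult. Motifs were searched on both strands. GGTGTG, bound by T-box factors, was in 19.0% of all 32851 windows. AAGTG, bound by NK2 factors such as Nkx2-5, was in 46.4%. AGATAA, the letters of a GATA factor site, was in 11.2%, and CTANNNNTAG, those of a Mef2 factor site, in 3.69%. No window of these genes held more than 1 match, so none overlap. Capitals mark a match on either strand.
Gja1 promoter, chr10:56377050-56377349 (+ strand, GRCm38.p6): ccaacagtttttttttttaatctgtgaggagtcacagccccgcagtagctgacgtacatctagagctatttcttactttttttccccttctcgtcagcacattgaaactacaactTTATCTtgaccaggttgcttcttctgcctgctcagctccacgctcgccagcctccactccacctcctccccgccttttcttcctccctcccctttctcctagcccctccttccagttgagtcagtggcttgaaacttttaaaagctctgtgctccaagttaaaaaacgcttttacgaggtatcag
Gja5 promoter, chr3:97032152-97032451 (+ strand, GRCm38.p6): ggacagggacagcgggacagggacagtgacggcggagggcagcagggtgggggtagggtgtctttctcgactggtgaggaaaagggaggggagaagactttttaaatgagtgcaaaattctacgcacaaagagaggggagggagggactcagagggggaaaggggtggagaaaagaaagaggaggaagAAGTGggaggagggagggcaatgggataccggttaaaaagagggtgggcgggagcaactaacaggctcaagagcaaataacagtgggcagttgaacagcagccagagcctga
Gja3 promoter, chr14:57057981-57058280 (- strand, GRCm38.p6): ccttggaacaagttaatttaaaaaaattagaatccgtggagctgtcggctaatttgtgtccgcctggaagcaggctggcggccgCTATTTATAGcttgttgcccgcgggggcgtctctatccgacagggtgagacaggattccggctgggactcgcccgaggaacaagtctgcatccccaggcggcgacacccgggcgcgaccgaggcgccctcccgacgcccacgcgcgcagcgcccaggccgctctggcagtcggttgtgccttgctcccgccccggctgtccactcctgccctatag
Gja1 held 1 match to the GATA motif, on the strand opposite to the gene, Gja5 held 1 to the NK2 motif, and the shown window of Gja3 held 1 to the Mef2 motif. The other window of Gja3, chr14:57057674-57057973, held 1 match to the NK2 motif, and those of Gja4 and Hcn2 held none. The windows differed in composition, with a GC content of 47.7% for Gja1, 55.7% for Gja5, 63.3% for the shown window of Gja3 and 72.3% for Hcn2. A match is a run of letters and not a known site, and at these shares in all promoters it tells nothing about which factor acts on a gene.

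The gene models behind these levels differ in form. The connexins carry 1 to 3 exons and the HCN genes 8 exons each. Gja1 (chr10:56376947-56393788, plus strand) and Gja3 (chr14:57034525-57057945, minus strand) were assembled with 2 transcripts each, and Gjc1 (chr11:102796358-102819686, minus strand) with 6 transcripts from 5 starts, 1977 to 8843 nt long. Gja4 (chr4:127311421-127313978, minus strand) and Gja5 (chr3:97032416-97053634, plus strand) each have 1 transcript, as does Gjd3 (chr11:98982180-98983016, minus strand). One fpkm value per locus is given, so that the transcripts of a locus cannot be told apart by level. An unspliced, unnamed locus ends 276 bp upstream of Gja5 on the same strand and was listed at 0 at E10.5, with 0.126 fpkm at E13.5 and 0.700 fpkm in Adult.

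**Figure D4:**
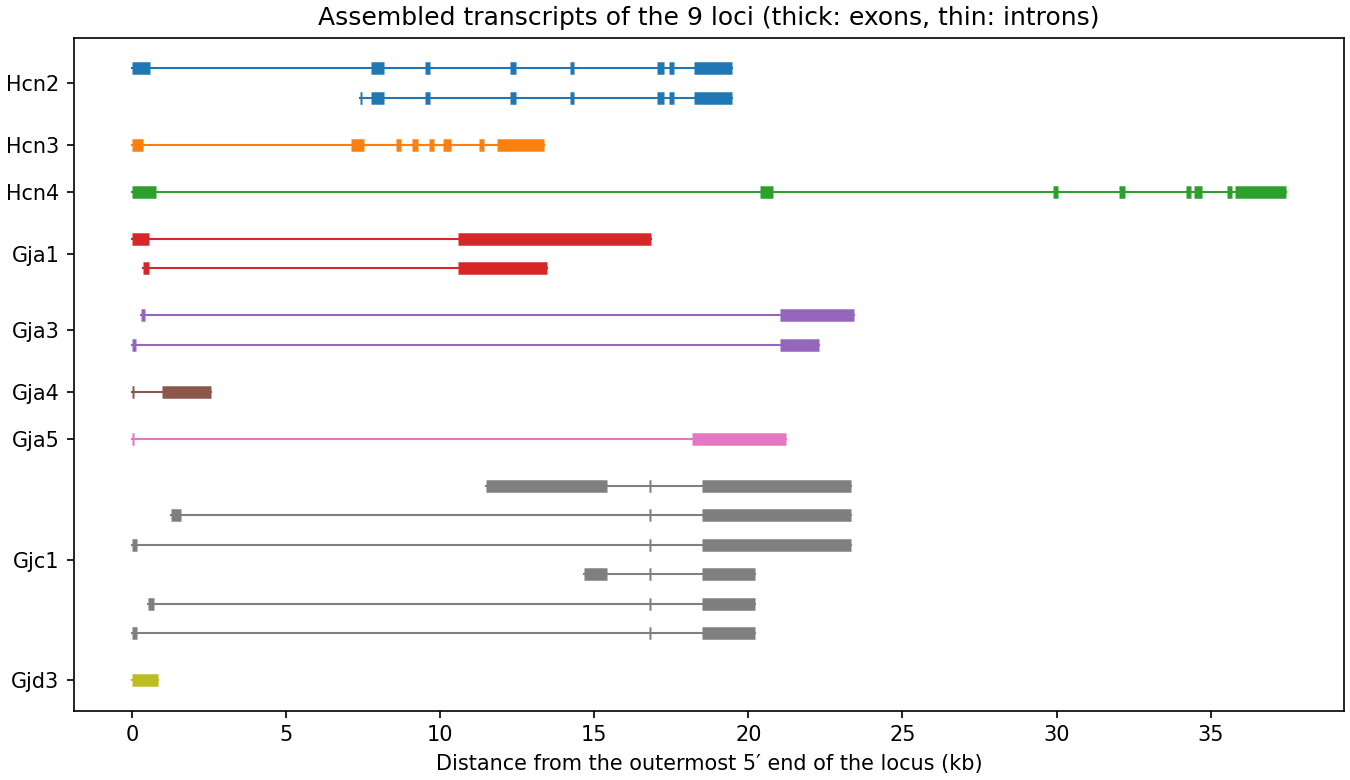
Assembled transcripts of the 9 loci, 1 line per transcript, with exons thick and introns thin, against the distance in kb from the outermost 5′ end of each locus. The HCN genes have 8 exons, whereas the connexins have 1 to 3, and Gjc1 has 6 transcripts.

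The E13.5 library differed from both others by transcript length, which bears on each comparison with it. For mRNA loci with a longest transcript under 1000 nt, the median change from E10.5 to E13.5 was 0.61, and for those of 8000 nt or more it was -0.32. From E13.5 to Adult the same classes had -0.94 and -0.02, while from E10.5 to Adult they had -0.32 and -0.42. Gja4, with 1624 nt, is in the class whose median was 0.46 from E10.5 to E13.5, and its change less that median was -0.82. Hcn4, Gja3 and Gja5 are in the class of 2000 to 4000 nt, with a median of 0.28, and their changes less that median were -0.98, 0.66 and 0.66. Gja1, in the class with a median of 0.02, had 0.07. The part of this trend in the values of the single genes was not tested.

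**Figure D5:**
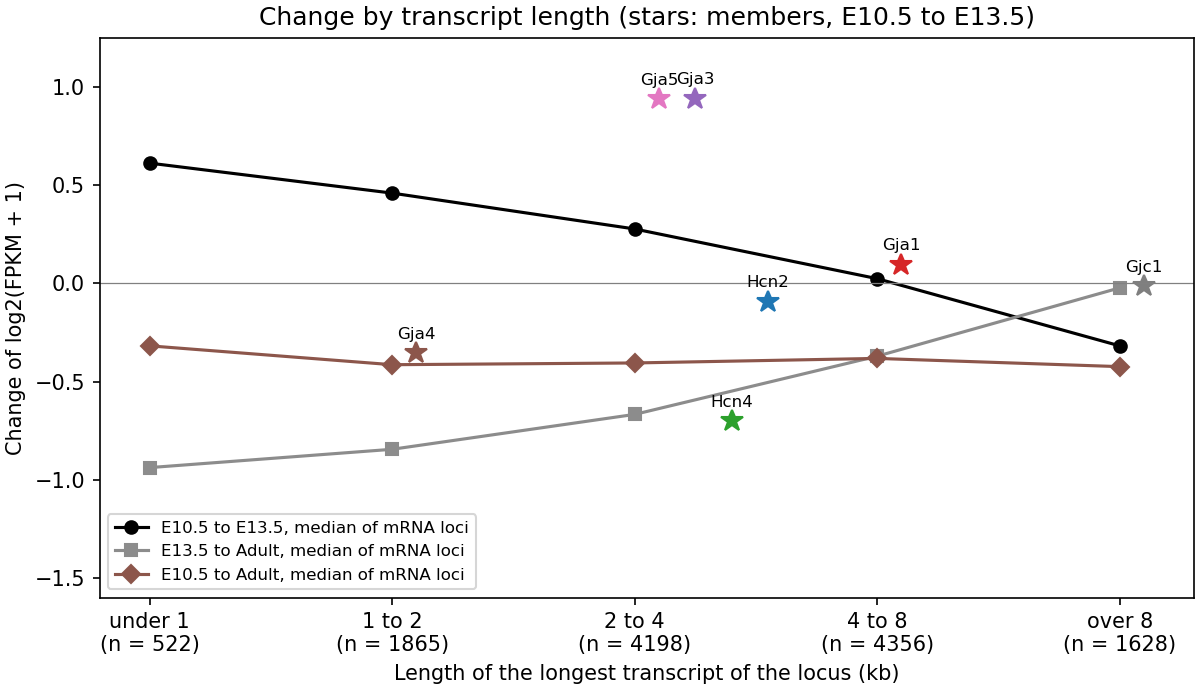
Median change of log2(fpkm + 1) of expressed mRNA loci in 5 classes of the longest transcript (kb) for the 3 comparisons (lines), with the 7 expressed genes as stars at their change from E10.5 to E13.5, side by side within their class. Both lines that involve E13.5 slope, in opposite directions, and the line from E10.5 to Adult lies between -0.32 and -0.42 throughout.

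Other members of the channel families were at low levels. Of 18 further HCN, connexin and pannexin genes, 1 was expressed: Panx1, which forms large pores in single membranes, had 7.67, 12.2 and 1.39 fpkm, with a change of -1.86 from E10.5 to Adult. Gje1 was listed at 0 in all 3 libraries. Gja3 lies near Gjb2 and Gjb6, connexins best known from the inner ear. Gjb2, 40657 bp from Gja3, had 0.023, 0.092 and 0.032 fpkm, and Gjb6, at 65358 bp, had 0.085 fpkm in Adult and was listed at 0 before. These neighbours were thus below 1 fpkm at each stage, whereas Gja3 reached 4.76 fpkm.

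Marker genes of several cell types also differed between the libraries, and in bulk RNA fewer cells of a type and less RNA per cell cannot be told apart. The counts below compare E10.5 with Adult, where 14.8% of all expressed mRNA loci were higher and 27.3% were lower. These marker counts were not recalculated with the other scalings. Beside Gja5 and Hcn4, which atrial cells also express, the atrial list had 0 genes higher and 4 of 5 lower from E10.5 to Adult, with the sums given above. Most of the embryonic sums came from Myl7, Myl4 and Nppa, measured here in ventricle RNA. Whether atrial or ventricular cells of the embryo expressed them was not tested, so the sums do not give an amount of atrial cells. Beside Gja4, 8 endothelial markers summed to 367, 293 and 365 fpkm, with 0 higher and 0 lower from E10.5 to Adult. Of 8 arterial markers, which summed to 68.3, 90.5 and 30.1 fpkm, 2 were higher and 4 lower. Unc5b, a netrin receptor of arterial endothelium, was among those lower, from 21.3 to 2.25 fpkm, and the higher ones were Sema3g, a semaphorin, from 0.785 to 4.28 fpkm, and Fbln5, an elastic fibre protein, from 0.457 to 2.60 fpkm. Dll4, a Notch ligand of arteries, had 4.83 and 5.69 fpkm. All 4 endocardial markers were lower, with sums of 166, 107 and 8.84 fpkm. Smooth muscle markers summed to 1329, 1286 and 445 fpkm (2 higher and 3 lower of 6). Acta2 held most of the E10.5 sum and fell from 1090 to 124 fpkm, and Tagln and Cnn1 were lower too. The higher ones were Myh11, from 0.112 to 18.1 fpkm, and Rgs5, from 9.81 to 240 fpkm, so the sum does not speak for the whole list. Epicardial markers summed to 128, 122 and 18.2 fpkm (0 higher and 4 lower of 5), and fibroblast markers to 147, 442 and 432 fpkm (1 higher and 1 lower of 6). Markers of macrophages, which can carry Gja1, summed to 35.4, 57.6 and 321 fpkm with 6 of 6 higher. Erythroid markers summed to 6758, 16349 and 24.5 fpkm, with 4 of 5 lower. The embryonic sums came mostly from the globin genes Hbb-y, Hbb-bh1 and Hba-x, and Hbb-y alone went from 4356 at E10.5 to 2.87 fpkm in Adult. Alas2, the one not lower, had 18.2 fpkm at E10.5 and 19.6 fpkm in Adult, so the sums do not give the amount of red cells. Of 6 Schwann cell and neuron markers 1 was expressed, and their sums were 3.37, 4.76 and 6.06 fpkm, with S100b listed at 0 at E10.5 and Th in Adult. The part of these cell types in the levels of the connexin and HCN genes was not tested.

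Many transcription factors of the conduction system and chambers were lower in Adult, and none was higher. All 16 listed were expressed, and from E10.5 to Adult 0 were higher and 10 lower, beside 14.8% and 27.3% of all expressed mRNA loci, with a median change of -1.35 beside -0.40. From E13.5 to Adult 0 were higher and 11 lower, beside 13.0% and 32.1% of all, with a median of -1.49 beside -0.50. With median-of-ratios scaling 8 of the 16 were lower in each of these comparisons, beside 17.6% of all from E10.5 and 18.1% from E13.5. The largest falls from E10.5 were those of Id2, an inhibitor of basic helix-loop-helix factors, from 101 to 5.94 fpkm, Tbx18, a T-box factor of the sinus horns and epicardium, from 33.1 to 1.83 fpkm, and Irx5, from 11.3 to 0.392 fpkm. Nkx2-5, a homeobox factor that acts on both working and conducting myocytes, had 46.8, 61.1 and 9.37 fpkm. Tbx5, which activates Gja5 in the mouse heart, had 14.5, 7.80 and 4.23 fpkm, while Tbx3, which represses Gja1 and Gja5 in the nodes, had 2.68, 2.37 and 1.85 fpkm. Thus Tbx5 fell by 1.56 on the log2(fpkm + 1) scale from E10.5 to Adult, and the change of Tbx3, at -0.37, was inside the threshold.

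Factors of the sinus node and venous pole stood out at E13.5. From E10.5 to E13.5, 3 of the 16 were higher and 0 lower, beside 5.89% and 4.85% of all expressed mRNA loci. Among the higher were 2 genes that passed the limit of 1 fpkm only through E13.5, so that a peak there was to that extent built in. These were Shox2, at 0.301 and 2.69 fpkm, and Isl1, at 0.291 and 3.76 fpkm. In Adult these stood at 0.297 and 0.044 fpkm. Hcn4, the node's channel gene, did not share this peak and was lower at E13.5 than at E10.5, whereas Gja5 did have its highest level at E13.5.

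Other genes of pacemaking and conduction went both ways. Of 21 listed, 16 were expressed, and from E10.5 to Adult 5 were higher and 6 lower, beside 14.8% and 27.3% of all expressed mRNA loci, with a median change of 0.25 beside -0.40. With median-of-ratios scaling the balance turned to 7 higher and 5 lower, beside 20.9% and 17.6% of all. The largest rises were those of Ryr2, the calcium release channel of the sarcoplasmic reticulum, from 73.1 to 281 fpkm, Kcnj3, a subunit of the acetylcholine-activated potassium channel, from 7.15 to 27.0 fpkm, and Cacna1c, the main cardiac L-type calcium channel, from 16.02 to 53.7 fpkm. The largest falls were those of Cacna2d2, an auxiliary calcium channel subunit, from 20.1 to 0.055 fpkm, Cacna1h, a T-type calcium channel, from 13.47 to 0.407 fpkm, and Adcy1, an adenylyl cyclase, from 3.29 to 0.313 fpkm. Cacna1d, the L-type channel of node cells, was lower, like Hcn4, from 14.2 to 3.98 fpkm, and the other T-type channel gene, Cacna1g, had 0.262, 2.15 and 1.61 fpkm. Kcne2 and Pex5l, which encode proteins that bind HCN channels, were below 1 fpkm at each stage. From E10.5 to E13.5, 2 were higher and 5 lower, which is 12.5% and 31.2% of the 16, beside 5.89% and 4.85% of all. From E13.5 to Adult 4 were higher and 3 lower, which is 25% and 18.8%, beside 13.0% and 32.1% of all. The part of the trend with transcript length in these counts was not tested.

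Partners of connexins at the intercalated disc went both ways. All 15 listed were expressed, with 1 higher and 4 lower from E10.5 to Adult, beside 14.8% and 27.3% of all expressed mRNA loci, and a median change of 0.08 beside -0.40. The share of partners that were lower, 26.7%, is near that of all loci. The one higher was Dsp, the plaque protein desmoplakin, from 52.7 to 163 fpkm. Mapre1, a microtubule end protein that helps to deliver Cx43, fell from 64.4 to 20.7 fpkm, and Ctnnb1, beta-catenin, from 294 to 138 fpkm. Ank3, the scaffold ankyrin-G, fell from 20.4 to 9.48 fpkm. Tjp1, the ZO-1 that binds the tail of Cx43, had 32.0, 23.0 and 24.0 fpkm, and Cdh2 had 69.9, 37.4 and 73.8 fpkm, both within the threshold from E10.5 to Adult. From E10.5 to E13.5, 0 were higher and 4 lower, which is 0% and 26.7% of the list beside 5.89% and 4.85% of all. From E13.5 to Adult 4 were higher and 3 lower, which is 26.7% and 20% of the list beside 13.0% and 32.1% of all. With median-of-ratios scaling there were 7 higher and 1 lower from E13.5 to Adult, beside 21.9% and 18.1% of all. From E10.5 to Adult that scaling gave 2 higher and 1 lower, beside 20.9% and 17.6% of all.

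The mRNA loci most like each gene were found by the distance between their 3 values of log2(fpkm + 1), over 12086 loci and 3 libraries. For Gja1 these were Prdx3, Got2 and Suclg1, 3 genes of mitochondrial enzymes, at distances of 0.23, 0.24 and 0.26. For Gja5 they were Galk1, Nme4 and Mcm3, at 0.38, 0.48 and 0.56, so its profile had the least close match of the 7. Hcn4 was nearest to Plxna3, Ildr2 and Kif24, at 0.08, 0.11 and 0.24, and Hcn2 to Bst1, 4831426I19Rik and Mctp1, at 0.04, 0.07 and 0.09. The nearest to Gja4 were Dck, Mum1l1 and Pigf, those to Gjc1 were Fam111a, Wdr75 and Cyp20a1, and those to Gja3 were Dock10, Pdlim4 and Nrbp2. With 3 libraries many loci share a profile, and likeness here is only of these values.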

How the data were processed

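Total RNA of heart ventricle was measured in 3 libraries, 1 for each stage. The kit used keeps the strand, and both fragment ends were sequenced. According to the study's methods and the submitters' processing notes, the authors mapped reads to mm10 with Tophat2 and Bowtie, assembled them with Cufflinks and deposited 1 fpkm value per merged locus and library. Further tool versions, and how fragments that map to several places were treated, were not given in the sources used here. Deposited exon starts and ends came from the transcript annotation, which also pairs loci with gene names. The 9 loci of the expression table that have no transcript there were not analysed here.

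Values were used as deposited, on the log2(fpkm + 1) scale. An mRNA locus holds a transcript that matches a RefSeq mRNA in full, and 12569 such loci reached 1 fpkm in at least 1 library. With 1 library per stage no test was made, and a change of 1 was the threshold. Depth was read from the smallest steps between values of single-transcript loci, so fragment numbers are approximate and cover counting error only. Library sums were 601115, 808971 and 443471 fpkm, with 11296, 11608 and 11160 expressed mRNA loci. Named genes were all members, the 3 largest changes in each direction of each list from E10.5 to Adult, and the 3 loci nearest to each expressed member; other genes named were chosen after their values were seen. Some genes that this rule or a list holds are not reported here, and shares are therefore given over the members of each family alone, although shares of the whole family had been intended. Members and gene lists were chosen with earlier results of these data known, as were the motifs. Promoter windows and gene names came from RefSeq GRCm38.p6, whose coordinates are those of mm10. Alternatives were pseudocounts of 0.1 and 0.5, median-of-ratios scaling, scaling without globin and mitochondrial loci, a change of 2, no filter or a filter of 2 fpkm, loci joining several genes left out, and, chosen after seeing the data, subtraction of the median of the length class. Scripts used Python 3.11.15, numpy 2.4.6 and pandas 2.3.3 and were tested on simulated data.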

Additional observations from a re-analysis of the deposited data

How the results depend on the processing

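No paired analysis was possible because every stage is represented by 1 library, and no replicate could be left out for the same reason. Over the alternatives, 276 counts and shares were recalculated, of which 245 stayed close and 31 moved; shares over the members alone, as printed, were set against those of the whole family. Of 65 recalculations of the 13 changes of member genes past the threshold, 58 stayed past it, 7 fell inside it and 0 changed sign. Those with a smaller pseudocount could only enlarge a change and keep its sign, so the 58 include recalculations that could not have failed. Only the other scalings and the subtraction of the length class median could bring a change inside the threshold. The 7 that fell inside it were of Hcn4 and Gjc1. For Hcn4 from E13.5 to Adult they were -0.86, -0.98 and -0.51. For Gjc1 they were -0.71 and -0.98 from E13.5 to Adult, and -0.88 and -0.88 from E10.5 to Adult.

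With a pseudocount of 0.1 or of 0.5, the members higher in E13.5 than in E10.5 went from 0 to 1. With median-of-ratios scaling, the balance of higher and lower turned from 2 and 4 to 3 and 2 for members in Adult against E13.5, from 5 and 6 to 7 and 5 for pacemaking genes in Adult against E10.5, and from 1 and 4 to 2 and 1 for junction genes in Adult against E10.5. With that scaling, the members lower in Adult than in E13.5 went from 4 to 2, the conduction factors lower in E13.5 than in E10.5 from 0 to 1, the pacemaking genes higher in E13.5 than in E10.5 from 2 to 1 and those higher in Adult than in E13.5 from 4 to 7. The same scaling took the junction genes in Adult against E13.5 to 7 higher and 1 lower, and against E10.5 to 2 higher and 1 lower. With scaling without globin and mitochondrial loci, 2 members were lower in Adult than in E13.5, 2 conduction factors were lower in E13.5 than in E10.5, and 1 pacemaking gene was higher and 8 were lower in E13.5 than in E10.5. With a change of 2 as the threshold, 0 members were higher and 2 lower in Adult than in E13.5, and likewise 0 and 2 against E10.5. At that threshold 0 other family genes were lower in Adult than in E10.5, 0 conduction factors were higher in E13.5 than in E10.5, and 6 and 5 were lower in Adult than in E13.5 and E10.5. Pacemaking genes then gave 0 higher and 0 lower in E13.5, and 0 higher and 2 lower in Adult against E10.5. Junction genes gave 0 lower in E13.5, 1 higher and 0 lower in Adult against E13.5, and 0 and 0 against E10.5. The stricter threshold leaves fewer genes by construction, and the cause of the other shifts was not tested.

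Depth limits Hcn3, Gjd3 and the embryonic values of Hcn2 most, since each rests on about 20 fragments or fewer.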
